A study of Mus musculus with 2 samples.

Results

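The genes described here are 39 genes of S phase and DNA replication, a list of symbols that was matched in the read counts of small hepatocytes (SHs) and mature hepatocytes (MHs). All 39 symbols were among the 43280 gene symbols counted in each library. The measurement was poly(A) RNA-seq on an Ion Proton system, with 1 library of MHs and 1 library of SHs. Both came from C57BL6 mice that the labels give as 20 weeks old, with no treatment named, and the cells were used fresh after collagenase perfusion of the liver. The labels state that the 2 preparations were taken from the same mice, and the methods name 3 healthy adult mice and a younger age range for the study. MHs were the cells pelleted at low speed and cleared of dead cells on Percoll, and were not sorted. SHs, which the study regards as intrinsic hepatocyte progenitors, came from the supernatant of that step and were sorted as CD31-, CD45- and EpCAM- cells that carry ICAM-1. There was no replicate of either preparation, so no test between them was possible. All intervals below are 95% intervals that cover counting error only, from reads without molecular identifiers.

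DNA replication starts when the origin recognition complex (ORC) marks origins and, with Cdc6 and Cdt1, loads the MCM2-7 helicase onto DNA in G1 phase. In S phase the helicase is activated by Cdc45, the GINS complex and Mcm10, and polymerases copy the strands with the sliding clamp Pcna, which the replication factor C (RFC) complex loads. Most hepatocytes of the healthy adult liver rest outside the cell cycle, and many of the genes listed here are transcribed under E2F factors when a cell enters S phase. The comparison asks whether the expression of these genes differed between SHs and MHs.

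The MH library held 16979136 counted reads and the SH library 42356444. A level of 3 reads, taken as the floor, was 0.177 reads per 1000000 counted reads (RPM) in MHs and 0.0708 in SHs. Both libraries carried hepatocyte RNA. The 8 hepatocyte markers, led by Alb, summed to 78928 RPM in MHs and 83858 in SHs, and these markers do not separate SHs from MHs. The lists for endothelium, macrophages and stellate cells were each lower in SHs. The 10 endothelial markers, with Stab2 highest in each library, summed to 95.1 RPM for MHs and 4.60 for SHs, and all 10 were at least 2-fold lower. The 9 macrophage markers summed to 21.3 and 0.661 RPM, and the 7 with at least 10 reads were all at least 2-fold lower. Clec4f was the highest of them in MHs and Csf1r in SHs. The 10 stellate markers, led by Reln, summed to 26.7 and 2.67 RPM, and the 8 with at least 10 reads were all at least 2-fold lower. Lyve1, Marco and Lum had 0 reads in SHs. The 8 cholangiocyte markers summed to 14.0 and 14.4 RPM, most of it Spp1 and Sox9, and Krt19 and Krt7 had 1 read each in each library. The 11 lymphocyte markers summed to 1.35 and 1.06 RPM, led by Cd4, with Cd3e, Cd3g, Cd79b and Ms4a1 at 0 reads in both. The 6 neutrophil markers had 1 read in MHs, on Elane, and 4 in SHs, on S100a9. The 7 erythroid markers summed to 120 and 139 RPM, nearly all of it Alas2, and the globin genes had at most 9 reads each.

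The promoters of the genes that the results turn on are shown first. The sequences are RefSeq's, on the mouse build GRCm38.p6, which is the mm10 assembly that the study used. Each line holds the 250 bases before the annotated start, read 5′ to 3′ on the strand of the gene. Mcm2, Mcm3, Mcm5 and Mcm6 are the helicase subunits whose intervals lay under 0, Mcm10 is the member with the most reads, and Pola1 is the member with the highest ratio among those whose interval lay above 0. Capitals mark words of the E2F motif, in either direction.
Mcm2, chr6:88898781-88899030, minus strand: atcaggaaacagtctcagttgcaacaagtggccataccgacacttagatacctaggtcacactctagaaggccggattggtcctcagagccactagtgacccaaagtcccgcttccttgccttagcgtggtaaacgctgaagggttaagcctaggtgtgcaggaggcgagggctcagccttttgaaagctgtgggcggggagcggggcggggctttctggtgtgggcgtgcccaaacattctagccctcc
Mcm3, chr1:20820313-20820562, minus strand: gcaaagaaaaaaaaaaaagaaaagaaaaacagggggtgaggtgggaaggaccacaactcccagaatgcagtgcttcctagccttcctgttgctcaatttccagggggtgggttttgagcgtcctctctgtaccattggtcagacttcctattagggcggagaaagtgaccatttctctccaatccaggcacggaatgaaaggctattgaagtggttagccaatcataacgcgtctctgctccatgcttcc
Mcm5, chr8:75109259-75109508, plus strand: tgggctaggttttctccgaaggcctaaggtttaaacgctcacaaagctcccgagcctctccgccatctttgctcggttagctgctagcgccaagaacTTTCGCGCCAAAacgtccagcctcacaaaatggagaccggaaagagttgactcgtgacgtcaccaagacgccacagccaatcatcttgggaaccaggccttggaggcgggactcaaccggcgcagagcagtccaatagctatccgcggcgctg
Mcm6, chr1:128359706-128359955, minus strand: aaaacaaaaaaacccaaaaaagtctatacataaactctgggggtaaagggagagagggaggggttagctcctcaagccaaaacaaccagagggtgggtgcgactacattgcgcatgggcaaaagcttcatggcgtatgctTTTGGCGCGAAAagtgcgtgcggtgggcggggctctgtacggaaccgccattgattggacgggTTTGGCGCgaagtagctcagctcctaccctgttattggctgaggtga
Mcm10, chr2:5012792-5013041, minus strand: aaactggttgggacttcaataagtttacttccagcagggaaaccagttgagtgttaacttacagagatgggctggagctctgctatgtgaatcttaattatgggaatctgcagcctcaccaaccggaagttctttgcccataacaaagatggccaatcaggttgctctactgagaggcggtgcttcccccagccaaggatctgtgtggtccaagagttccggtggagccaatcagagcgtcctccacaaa
Pola1, chrX:93632156-93632405, minus strand: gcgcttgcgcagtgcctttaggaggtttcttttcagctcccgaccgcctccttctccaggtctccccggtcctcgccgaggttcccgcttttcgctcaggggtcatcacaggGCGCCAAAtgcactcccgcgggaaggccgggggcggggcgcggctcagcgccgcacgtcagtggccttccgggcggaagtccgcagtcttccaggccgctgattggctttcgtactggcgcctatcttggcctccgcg
The E2F words searched were TTTCCCGC, TTTCGCGC, TTTGCCGC and TTTGGCGC on both strands, and words that overlap were each counted. Of the 39 members, 32 had a promoter in the RefSeq table and 7 did not, namely Mcm4, Gins1, Gins2, Gins4, Pole, Rfc2 and Ccne2. At least 1 word was found in 9 of the 32, or 28.1%, against 1.86% of the 32851 windows of the same length over all genes. Those windows covered 27025 genes, some with more than 1, while 1 window was taken for each member. The 9 were Orc1, Orc3, Cdc6, Mcm5, Mcm6, Mcm7, Gins3, Pola1 and Rfc3. For Cdc6 and Mcm7, the RefSeq start lay 350 and 539 bases inside the gene as annotated by GENCODE M21, so these windows are not upstream of that gene model. Mcm6 held 3 words, which begin 110, 106 and 47 bases before the start, and Mcm5 held 2, at 153 and 149 bases. Mcm2, Mcm3 and Mcm10 held none. The CCAAT box (CCAAT on either strand), the motif of the factor NF-Y, was in 56.2% of the 32 promoters and in 33.8% of all windows, and the GC box (GGGCGG on either strand) was in 68.8% and 32.7%. Genes with E2F words were thus found among those lower in SHs (Mcm5, Mcm6), among those higher (Pola1), and for Mcm7, whose ratio was 0.00. A match describes the letters of the window and does not show a binding site.

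Together the 39 genes had 4195 reads in MHs and 9932 in SHs, which was 0.0247% and 0.0234% of all counted reads. The sum was 247 RPM in MHs (239.7 to 254.7) and 234 RPM in SHs (229.9 to 239.1). The log2 ratio, which is given throughout as SHs over MHs, was -0.08 (-0.13 to -0.02). The interval took in 0 with totals that leave out the 10 most abundant transcripts, at -0.04 (-0.10 to 0.01), and reached 0.0001 with totals of protein-coding reads, a scaling added after the data were seen. Mcm10 alone held 33.2% of the members' reads in MHs and 29.4% in SHs, and the sum of the other 38 genes was 165.1 RPM for MHs and 165.5 for SHs. Without Mcm10 the log2 ratio was 0.0025 (-0.06 to 0.07), which is no difference beyond counting error. In bulk RNA, fewer cells that express a gene and less RNA per cell cannot be told apart.

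Of the 39 genes, 37 had at least 10 reads over both libraries. Orc1 and Cdc6 did not. Among the 37, 7 had an interval of the log2 ratio wholly under 0 and 3 wholly above 0. Over all 15521 genes with at least 10 reads, 15.5% had an interval under 0 and 16.8% one above 0, so 7 of 37, or 18.9%, was close to the background and 3 of 37, or 8.11%, was below it. A difference of at least 2-fold, with the interval on the same side of 0, was found for 3 of the 37 members, or 8.11%. They were Mcm5, Mcm6 and Ccne2, all lower in SHs, and 0 members were higher. The background of that rule was 4.46% of all genes lower and 2.00% higher, so the lower share, of 3 genes, was above it. That background pools all read depths, and genes with more reads passed less often, with 1.17% lower at 100 reads or more. A background matched to the low reads of these 3 genes was not computed. The median log2 ratio of the 37 was -0.09, and that of all 15521 genes was 0.02. As a list, the replication genes therefore differed little between the libraries, while groups within the list lay on opposite sides of 0.

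The 3 genes past 2-fold were all genes with few reads. Among the 25 members with at least 100 reads over both libraries, 0 were 2-fold lower, against 1.17% of all such genes, and 3, or 12%, had an interval under 0, against 16.2%. Of the 16 with at least 200 reads, 0 were 2-fold lower, against 0.812%, and 1, which was Mcm10, had an interval under 0, or 6.25% against 16.9%. At a threshold of 1.5-fold, 6 of the 37 members were lower and 1 higher, where the background was 6.20% and 3.50% of all genes. The share of lower members was thus above this background, which pools genes of all read depths as well. None of the 37 was 4-fold lower, against 2.52% of all genes. The few genes above 0 depended somewhat on the scaling. With the 10 most abundant transcripts taken out of both totals, 5 members had an interval above 0, against 20.1% of all genes, and Pola1 passed 2-fold, which 2.18% of all genes did. With totals of protein-coding reads it was also 5 members, against 19.2%.

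**Figure D1:**
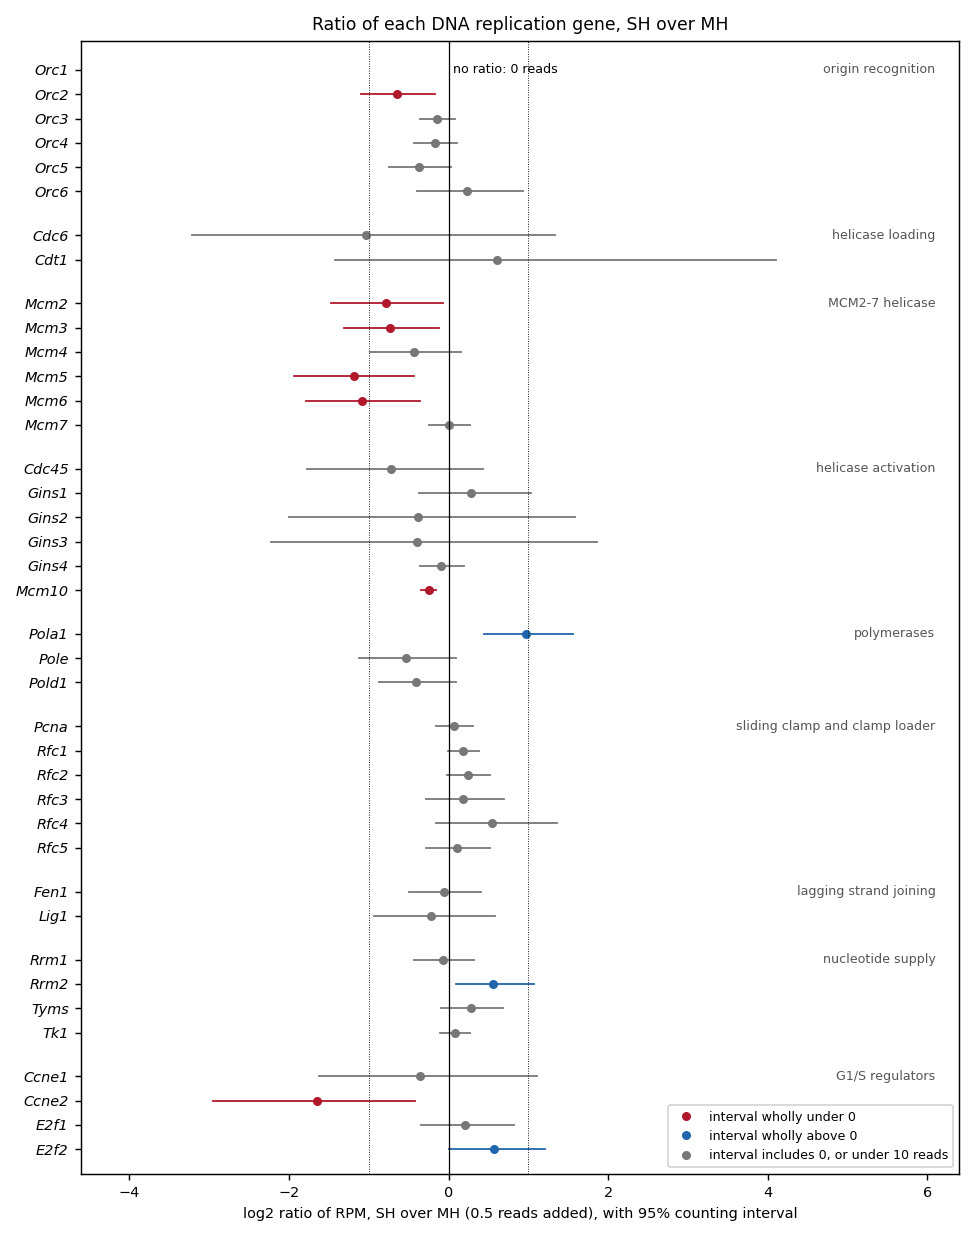
The log2 ratio of RPM of SHs over MHs (horizontal axis) is shown for each gene, grouped by role, with points for ratios, lines for 95% counting intervals and dotted lines at a 2-fold difference. Mcm2, Mcm3, Mcm5 and Mcm6 lie left of 0 with their intervals, Pola1, Rrm2 and E2f2 lie right of 0, and the 6 genes of the clamp and clamp loader all lie right of 0 with intervals that include it.

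Of the 6 subunits that form the ring of the replicative helicase, Mcm2, Mcm3, Mcm5 and Mcm6 were lower in SHs, and the intervals of Mcm4 and Mcm7 included 0. Mcm5, at chromosome 8, 75109569 to 75128439 (mm10), was counted 31 times among MH reads and 34 times among SH reads, although the SH library was the larger one. The levels were 1.83 RPM in MHs (1.24 to 2.59) and 0.803 in SHs (0.556 to 1.12), intervals that do not overlap. On the log2 scale the ratio was -1.19 (-1.93 to -0.44), 2.28-fold lower in SHs. Mcm6 (chromosome 1, 128331590 to 128359664) had 33 and 39 reads, or 1.94 RPM (1.34 to 2.73) and 0.921 RPM (0.655 to 1.26). Its log2 ratio was -1.08 (-1.78 to -0.36), 2.12-fold lower in SHs, and these levels do not overlap either. Both genes carry the E2F words shown above.

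Mcm2 (chromosome 6, 88883474 to 88898780) gave 31 MH reads and 45 SH reads, and the ratio on the log2 scale was -0.79 (-1.47 to -0.07). Mcm3 (chromosome 1, 20802968 to 20820312) had 41 and 62 reads, and the ratio on the log2 scale was -0.73 (-1.31 to -0.12). For both, the single-library intervals of the levels overlapped, from 1.24 to 2.59 RPM in MHs against 0.775 to 1.42 in SHs for Mcm2. Mcm4 had 42 and 78 reads, and 0 lay within the interval of its ratio, -0.98 to 0.15.

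Mcm7, the sixth subunit of the ring, had 180 reads in MHs and 451 in SHs, or 10.6 RPM in each, and the log2 ratio was 0.00 (-0.25 to 0.26). Mcm7 (chromosome 5, 138164583 to 138172422) overlaps the microRNAs Mir25 and Mir93, and its exons share 321 bases with Ap4m1 and 64 bases with Cops6 on the opposite strand. Ap4m1 had 90 and 244 reads and Cops6 had 921 and 2519. The 6 subunits together had a log2 ratio of -0.33 (-0.52 to -0.15). With Mcm7 left out, a grouping chosen after the values were seen, the other 5 summed to 178 reads in MHs and 258 in SHs, or 10.5 and 6.09 RPM. Their log2 ratio was -0.78 (-1.06 to -0.50), a value that leaving out Mcm7 fixed in part, so its distance from the ratio of Mcm7 is no separate evidence. The endothelial, macrophage and stellate markers were lower in SHs too, with 143 RPM in MHs and 7.93 in SHs in all, and their part in the lower levels of Mcm2 to Mcm6, or of the other genes lower in SHs, was not tested.

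Per exon length, Mcm7 also stood apart from its partners. Levels between genes were compared as reads per 1000 exon bases per 1000000 counted reads (RPKM), with exon lengths of the GENCODE M21 annotation. In MHs, Mcm2 to Mcm6 ranged from 0.262 to 0.689 RPKM and Mcm7 had 2.40. In SHs, the 5 ranged from 0.153 to 0.513 and Mcm7 had 2.41. Mcm7 was thus at 5.24 times the median of the other 5 in MHs and at 11.97 times in SHs, although the protein ring holds the 6 subunits in equal number. With the longest transcript in place of all exons, a choice made after the data were seen, the multiples were 6.61 and 11.4.

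**Figure D2:**
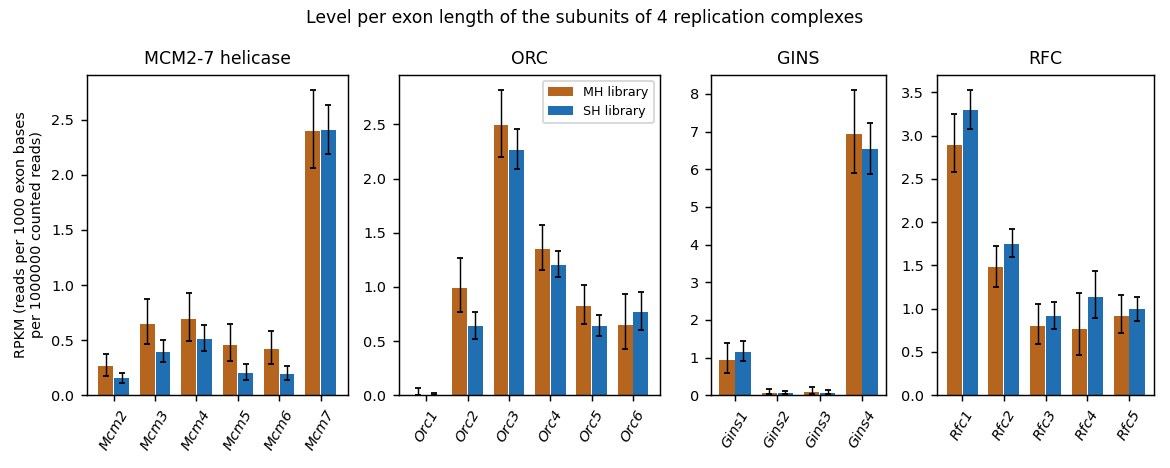
Bars show the RPKM of the subunits of 4 complexes in MHs and SHs, with 95% Poisson intervals of the counts as error bars and a separate vertical scale in each panel. Mcm7, Orc3, Gins4 and Rfc1 are the highest subunits of their complexes in both libraries, and Orc1 has 0 reads.

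The genes that load the helicase together with ORC had few reads. Cdc6, an ATPase that loads the helicase with ORC, had 4 reads in MHs and 5 in SHs. Cdt1, which carries MCM2-7 to the origin, had 2 and 9 reads. Their levels were between 0.118 and 0.236 RPM, near the floor in MHs, and a difference was not detectable at this depth. The interval of the log2 ratio ran from -3.21 to 1.34 for Cdc6 and from -1.42 to 4.10 for Cdt1.

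Orc1, the large ORC subunit whose gene is an E2F target in cycling cells, had 0 reads in both libraries. The floor of 3 reads is a 1-sided limit of a count of 0, and the 2-sided interval used for the other levels reached 0.217 RPM in MHs and 0.0871 in SHs. The other 5 subunits were all counted. Orc2 (chromosome 1, 58462771 to 58505109) gave 65 MH reads and 104 SH reads, or 3.83 and 2.46 RPM. Its log2 ratio of -0.64 (-1.10 to -0.17) was the lowest of the ORC genes. Exons of Orc2 share 1150 bases with Nif3l1 on the opposite strand, which had 196 and 481 reads and a log2 ratio of -0.03. Orc3 had 258 and 585 reads, Orc4 171 and 381, Orc5 86 and 167, and Orc6 27 and 80. The log2 ratios of these 4 lay between -0.37 and 0.23, with intervals that included 0. As a sum, the level of ORC was 35.8 RPM for MHs and 31.1 for SHs, lower in the latter at a log2 ratio of -0.20 (-0.34 to -0.06). Per exon length, Orc3 was the highest subunit, at 2.50 RPKM in MHs and 2.27 in SHs, and the other counted subunits ranged from 0.637 to 1.35.

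Mcm10, which binds the helicase as it is activated, had by far the most reads of the list. It had 1391 MH reads and 2924 SH reads, or 81.9 RPM (77.7 to 86.3) and 69.0 RPM (66.6 to 71.6). The next highest member, Tk1 in MHs and Rfc1 in SHs, had 18.1 and 19.9 RPM. Mcm10 had a log2 ratio of -0.25 (-0.34 to -0.15), a small difference with a narrow interval. Mcm10 (chromosome 2, 4989714 to 5012791) shares no exon bases with another annotated gene. Its level of 10.7 RPKM in MHs and 8.97 in SHs was also the highest per exon length. Counts per gene do not show where in Mcm10 the reads lie.

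Cdc45 and the GINS genes, whose proteins join MCM2-7 to form the active helicase, did not differ beyond counting error. Cdc45 had 13 MH reads and 20 SH reads, and the ratio on the log2 scale was -0.72 with an interval from -1.78 to 0.43. Gins4 had 159 and 373 reads, and the ratio on the log2 scale was -0.09 (-0.36 to 0.19). Gins1 had 24 and 74 reads and a log2 ratio of 0.29 (-0.38 to 1.03). Gins2 had 5 and 10 reads and Gins3 had 4 and 8. The GINS subunits, which bind in equal number, were counted at very unequal levels, since Gins4 had 6.94 RPKM in MHs and 6.53 in SHs while Gins2 and Gins3 had at most 0.0870. Exons of Gins2 share 2758 bases with Gse1 on the opposite strand, which had 273 and 717 reads. Gins4 was the second highest member per exon length in both libraries, and the fourth with the longest transcript as the length.

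**Figure D3:**
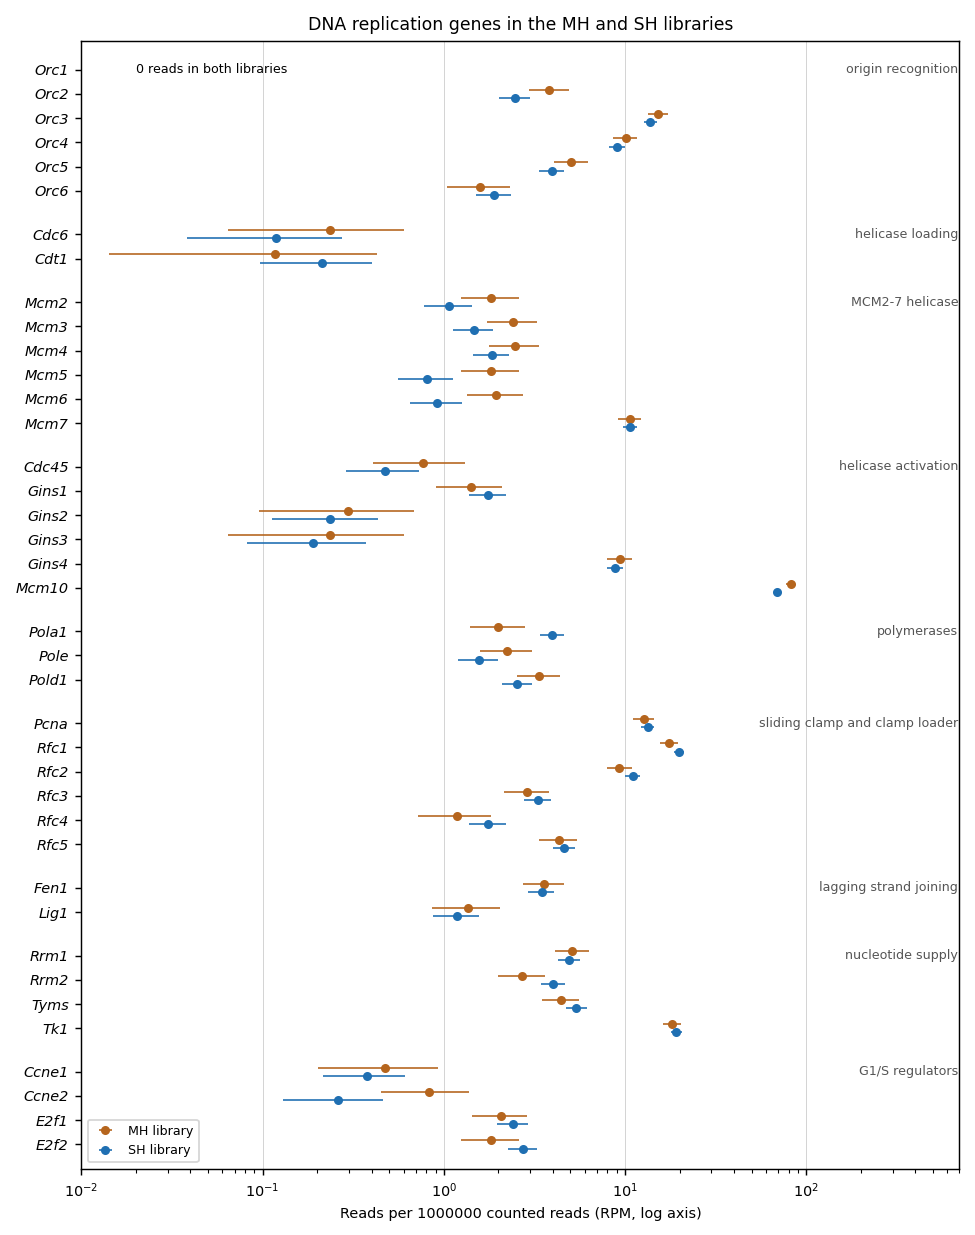
The level of each gene in RPM (horizontal log axis) is shown for the MH and the SH library, with 95% Poisson intervals of the counts as lines. Mcm10 lies at 81.9 RPM in MHs and 69.0 in SHs, Cdc6, Cdt1, Gins2 and Gins3 lie under 0.3 RPM, and Orc1 has 0 reads.

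Among the polymerases, Pola1 went the other way from the helicase. Pola1 (chromosome X, 93304767 to 93632155) encodes the catalytic subunit of the polymerase that starts each new strand with primase. It had 34 reads in MHs and 168 in SHs, or 2.00 RPM (1.39 to 2.80) and 3.97 RPM (3.39 to 4.61), intervals that do not overlap. Its log2 ratio of 0.97 (0.45 to 1.56), 1.96-fold higher in SHs, was the highest among the members with an interval above 0. No exon bases of Pola1 are shared with another gene. Its partners Pola2, Prim1 and Prim2 are in the separate list of other pathway genes and were named after their values were seen. They had log2 ratios of -0.15, -0.10 and -0.13, with intervals that included 0. The 9 polymerase and primase subunits of that list summed to a log2 ratio of 0.04 (-0.08 to 0.16). Pole, the catalytic subunit of the polymerase of the leading strand, had 38 and 66 reads, and Pold1, that of the lagging strand, had 57 and 108. They had log2 ratios of -0.53 (-1.12 to 0.09) and -0.40 (-0.87 to 0.09).

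Pcna and the 5 RFC genes had ratios above 0 in SHs, all with intervals that included 0. Pcna had 215 reads in MHs and 564 in SHs, or 12.7 and 13.3 RPM, a log2 ratio of 0.07 (-0.16 to 0.31). The pseudogene Pcna-ps2, whose reads may have been split from Pcna, had 33 and 80 reads. Rfc1, the large subunit, had 296 and 841 reads and a log2 ratio of 0.19 (-0.01 to 0.38). Rfc2 had 158 and 467 reads and a log2 ratio of 0.24 (-0.02 to 0.51). The interval of Rfc1 lay wholly above 0 under each of the other 4 scalings, and that of Rfc2 under 2 of them. Rfc3, with 49 and 140 reads, and Rfc5, with 73 and 196, had log2 ratios of 0.19 and 0.10, and Rfc4, with 20 and 74 reads, had one of 0.54 (-0.16 to 1.36). As a sum, the clamp and its loader were higher in SHs by a log2 ratio of 0.17 (0.06 to 0.29), from levels of 47.8 RPM for MHs and 53.9 for SHs. Exons of Rfc2, Rfc4 and Rfc5 share 952, 194 and 499 bases with Lat2, Eif4a2 and Wsb2 on the opposite strand. Eif4a2 had 1731 and 4279 reads, Wsb2 650 and 1681, and Lat2 1 and 7.

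Fen1, which removes flaps from the lagging strand, had 61 reads in MHs and 147 in SHs. Lig1, the ligase that joins its fragments, had 23 and 50. Their log2 ratios were -0.06 (-0.49 to 0.41) and -0.22 (-0.94 to 0.58).

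Of the 4 enzymes of nucleotide supply, Rrm2 had an interval above 0 and the other 3 had intervals that included 0. Rrm2 (chromosome 12, 24708241 to 24714146), the small subunit of ribonucleotide reductase that is made in S phase, had 46 reads in MHs and 170 in SHs. These were 2.71 RPM (1.98 to 3.61) and 4.01 RPM (3.43 to 4.66), a log2 ratio of 0.56 (0.09 to 1.07). The level intervals of the 2 libraries overlapped. Rrm1, the large subunit, had 87 and 208 reads and a log2 ratio of -0.07 (-0.43 to 0.32). Tyms, which makes thymidylate, had 75 and 228 reads and a log2 ratio of 0.28 (-0.10 to 0.68). Tk1, the cytosolic thymidine kinase, had 308 and 811 reads, or 18.1 and 19.1 RPM, and a log2 ratio of 0.08 (-0.11 to 0.27). Exons of Tk1 share 83 bases with Afmid on the opposite strand, which had 662 and 1914 reads.

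The regulators of S phase entry were split. Ccne2 (chromosome 4, 11191351 to 11204779), a cyclin E that activates Cdk2, had 14 reads in MHs and 11 in SHs, or 0.825 and 0.260 RPM. Its log2 ratio of -1.65 (-2.95 to -0.42) was the lowest of the list and rests on few reads. Exons of Ccne2 share 609 bases with Ints8 on the opposite strand, which had 246 and 627 reads. Ccne1, the other cyclin E, had 8 and 16 reads, and its interval from -1.63 to 1.11 included 0. E2f2 (chromosome 4, 136172394 to 136196057), an activating E2F factor, had 31 reads in MHs and 116 in SHs, or 1.83 RPM (1.24 to 2.59) and 2.74 RPM (2.26 to 3.28). Its log2 ratio was 0.57, with an interval from 0.0027 to 1.21 that barely left out 0. E2f1 had 35 and 102 reads and a log2 ratio of 0.21 (-0.34 to 0.82).

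The median level over the 38 members with reads was 0.690 RPKM in MHs and 0.638 in SHs, and 10 members in MHs and 13 in SHs reached 1 RPKM. With the longest transcript as the length, the medians were 1.02 and 1.05 RPKM, so their order turned, and 19 members reached 1 RPKM in each library. By exon length in MHs, the 5 highest per exon length were Mcm10, Gins4, Pcna, Tk1 and Rfc1, and the same 5 in the same order were highest in SHs. By the longest transcript the order was Mcm10, Tk1, Pcna, Gins4 and Orc3 in both libraries. The lowest with reads were Cdt1, Cdc6, Gins2 and Gins3, all under 0.1 RPKM in both.

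The other genes of the replication pathway were described by a separate list of 67 genes, which were all counted. They summed to 603 RPM for MHs and 624 for SHs, and the ratio on the log2 scale was 0.05 (0.02 to 0.08). Without Shmt1, the gene of that list with the most reads, it was 0.04 (0.0011 to 0.0773), an interval that barely left out 0. The median log2 ratio over the 60 genes of the list with at least 10 reads was 0.03. Of the 60, 4 or 6.67% had an interval under 0 and 8 or 13.3% one above 0, both below the shares over all genes. In each direction 1, or 1.67%, was past 2-fold, below the 4.46% of all genes lower and the 2.00% higher. E2f8, an E2F factor that represses transcription late in S phase, was lower in SHs, with 28 and 32 reads and a log2 ratio of -1.13 (-1.90 to -0.34). Chaf1b, a subunit of the chromatin assembly factor that places histones on new DNA, was higher, with 9 MH reads and 64 SH reads and a log2 ratio of 1.44 (0.50 to 2.70).

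Of the pathway genes with the most reads, Shmt1, an enzyme of folate metabolism, had 2544 MH reads and 6683 SH reads, and the ratio on the log2 scale was 0.07. The topoisomerases Top2b and Top1, which relieve the twist of DNA, had log2 ratios of 0.29 (0.15 to 0.43) and 0.19 (0.04 to 0.34). Mcmbp, which binds MCM proteins, had one of 0.31 (0.13 to 0.49). Chtf8, of an alternative clamp loader, and Rbl2, a pocket protein that binds E2F factors in resting cells, had log2 ratios of -0.11 (-0.24 to 0.03) and -0.04 (-0.18 to 0.11). By role, the fork protection and checkpoint genes had a lower sum in the SH library, at -0.23 (-0.38 to -0.08), and the licensing and firing genes one that was higher, at 0.17 (0.05 to 0.30). The topoisomerases, at 0.25 (0.15 to 0.35), and the other nucleotide enzymes, at 0.10 (0.05 to 0.16), were also higher. Most reads of the nucleotide enzymes were those of Shmt1, with 2544 of 3517 in MHs and 6683 of 9412 in SHs. The E2F and pocket proteins had a ratio of -0.09 with an interval that barely left out 0 (-0.18 to -0.0020). Every other scaling tried moves all log2 ratios up by at least 0.0091, so that this interval then includes 0. In the checkpoint and licensing roles, 1 of the 7 genes with at least 10 reads, or 14.3%, had an interval off 0 in each. Over all genes, 15.5% had one under 0 and 16.8% one above 0, so these counts did not exceed the background. It was Mcmbp among the licensing genes and, among the checkpoint genes, Atr, named after its values were seen, with 207 and 353 reads and a log2 ratio of -0.55 (-0.80 to -0.29).

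Genes of proliferation had few reads as well. The 10 genes of that list summed to 5.54 RPM for MHs and 6.59 for SHs, and the ratio on the log2 scale was 0.25 (-0.09 to 0.60). Mki67, a marker of cycling cells, had 29 MH reads and 112 SH reads, and the ratio on the log2 scale was 0.61 (0.03 to 1.27). Cdk1, the mitotic kinase, had 15 and 23 reads, and Ccna2, the cyclin of S phase and G2, had 7 and 18, with intervals that included 0. Named after its values were seen, the mitotic cyclin Ccnb2 was the 1 gene of the list past 2-fold. It had 3 and 29 reads and a log2 ratio of 1.76 (0.26 to 4.31), while Ccnb1 had 11 and 11 reads and a log2 ratio of -1.32 (-2.67 to 0.03). In this list 9 genes reached the read minimum, so Ccnb2 alone made 11.1%, against 2.00% higher over all genes at all read depths. Mki67 and Ccnb2, or 22.2%, had an interval above 0, against 16.8%. The ratio lay under 0 for 5 of the 9, and the median log2 ratio was -0.02. The list as a whole therefore showed no difference beyond counting error.

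**Figure D4:**
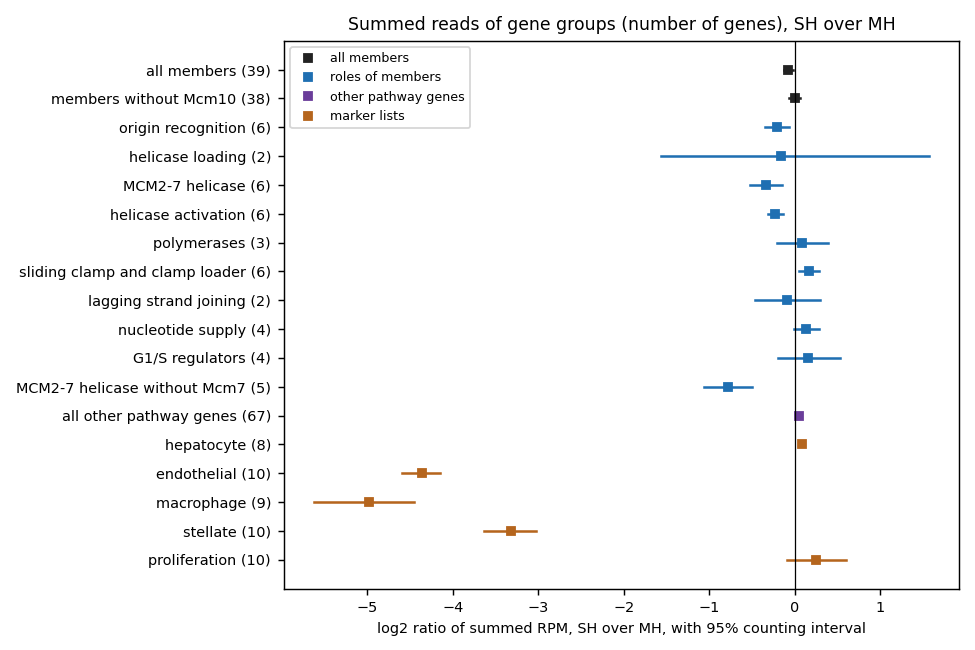
The log2 ratio of summed RPM of SHs over MHs (horizontal axis) is shown for the members, their roles, the other pathway genes and the marker lists, with squares for ratios and lines for 95% counting intervals. The 9 roles of the members lie between -0.33 and 0.17, the MCM2-7 helicase without Mcm7, a group chosen after the values were seen, lies at -0.78, and the endothelial, macrophage and stellate markers between -4.99 and -3.32.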

How the data were processed

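The authors deposited whole read counts per gene symbol for 1 library of MHs and 1 of SHs, without normalization. Their methods describe trimming, alignment to mm10 in CLC Genomics Workbench and RPKM values. The program, annotation and strand setting behind the counts are not given in the sources used here, so genes with overlapping exons or pseudogenes are uncertain.

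Levels are reads divided by the library total and multiplied by 1000000. Log2 ratios of SHs over MHs used 0.5 added reads, with 95% Clopper-Pearson intervals, and levels had exact Poisson intervals (Python 3.11.15, numpy 2.4.6, pandas 2.3.3, scipy 1.17.1). Counts of genes used a minimum of 10 reads over both libraries. All 39 symbols were matched in GENCODE M21 for exon lengths and coordinates. With 1 library per condition, no p-value was computed. The calculation was tested on simulated data.

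The members and lists were chosen with earlier results of these data known. All members were to be named, with the 6 pathway genes with the most reads, those past 2-fold, and, of the proliferation list, Mki67, Cdk1 and Ccna2. Other scalings (edgeR 4.0.16 TMM and DESeq2 1.42.0 size factors in R 4.3.3, totals that leave out the 10 most abundant transcripts), 2 added reads, read minimums and fold thresholds were tried. Scaling by protein-coding reads, leaving out members with overlapping exons, and transcript lengths were added after the data were seen.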

Additional observations from a re-analysis of the deposited data

How the results depend on the processing

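No paired analysis was possible because MHs and SHs had 1 library each. The sum of the members depended on the genes included. Its log2 ratio was 0.0025 without Mcm10 and 0.0132 with the other pathway genes, where the sign turned. The interval of that sum took in 0 under totals without the 10 most abundant transcripts, at -0.0440, and under protein-coding totals, at -0.0524. With totals that leave out the 10 most abundant transcripts, 1 member, Pola1, was at least 2-fold higher and 5 had an interval above 0, as 5 did when scaled by reads on protein-coding genes. The scalings shift all genes alike, which is why Rfc1 and Rfc2 crossed 0. With at least 100 reads, 0 members were at least 2-fold lower and 3 had an interval under 0. With at least 200 reads these numbers were 0 and 1, and the median log2 ratio was 0.0372. Fewer genes were counted at those minimums. A threshold of 1.5-fold gave 6 lower members and 1 higher, and one of 4-fold gave 0 lower. Of 190 single-gene ratios under the 5 settings of scaling and added reads, 0 moved beyond their interval, and the sign turned in 1, Mcm7 with 2 added reads (-0.0032). The scalings shift every ratio by at most 0.0315, too little to leave even the interval of Mcm10, the narrowest of the list. For the scalings, that outcome was therefore fixed in advance and is no check of the ratios. With the longest transcript as the length, added after the data were seen, the order of the libraries' median RPKM turned. Without the 13 members whose exons overlap a protein-coding gene, the sum had a log2 ratio of -0.11. Of the 24 remaining members with at least 10 reads, 5, or 20.8%, had an interval under 0 and 3, or 12.5%, one above 0. Over all genes these shares were 15.5% and 16.8%. Depth limits the list, since 30 of the 39 genes had under 100 reads in MHs and 18 in SHs.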

Other observations

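Genes of DNA repair and lesion bypass were counted as well, from lists chosen after the members' values had been seen. The 12 genes of repair and bypass polymerases summed to 78.5 RPM for MHs and 83.0 for SHs, and the ratio on the log2 scale was 0.08 (-0.01 to 0.17). Of the 11 with at least 10 reads, 2, or 18.2%, had an interval above 0 and 1, or 9.09%, one under 0. Over all genes these shares were 16.8% and 15.5%. Poll, a polymerase of DNA end joining, had a log2 ratio of 0.52 (0.18 to 0.88), and Mad2l2, a subunit of polymerase zeta, one of 0.34 (0.11 to 0.58). Rev1, a scaffold of lesion bypass, had one of -0.31 (-0.56 to -0.06). Rev3l, the catalytic subunit of polymerase zeta, had 293 and 748 reads and a log2 ratio of 0.03 (-0.16 to 0.23). The 15 homologous recombination and Fanconi genes summed to 21.7 RPM for MHs and 23.1 for SHs, a log2 ratio of 0.09 (-0.09 to 0.26). Of the 10 with at least 10 reads, 0 had an interval off 0.

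Among the relatives of the helicase genes, Mcm8 had 32 and 67 reads and Mcm9 had 49 and 148, with intervals that included 0.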
